A study of Mus musculus with 6 samples.

Results

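Keratins and regulators of thymic epithelium were followed in a mouse thymoma line. The 10 genes were chosen by name: Krt5, Krt7, Krt8, Krt14, Krt18, Krt19, Trp63, Foxn1, Il7 and Pax1. All 10 have a value among the 25001 loci of the deposited tables, of which 22601 carry a gene symbol. The series asked which genes respond to EICD, the intracellular domain that is cut from the membrane protease epithin/PRSS14 (gene St14).

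RNA was sequenced from 6 libraries of 427 thymoma cells, 1 per condition. The 427 libraries came from cells carrying the pSUPER vector, and the SP2bKD libraries from cells with a knockdown of SPPL2b, a protease that cuts within membranes. Each of these was treated for 2 h with DMSO or with 1 µM of the phorbol ester PMA after 2 h without serum. The remaining pair came from SP2bKD-10 cells that were transfected with GFP, or with GFP and FLAG-tagged EICD, and sorted for GFP the day after. Per the labels the knockdown is an siRNA, while the methods of the study give a stable shRNA and name SP2bKD-10 a single-cell clone. The clone is not named for the SP2bKD cells with DMSO or PMA, and the serum state is not given for the transfected cells. The GFP and GFP+EICD libraries therefore differ from SP2bKD with DMSO by transfection, sorting and perhaps clone and serum, which cannot be told apart.

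Expression is given as FPKM, fragments per kilobase of transcript scaled to the size of the library. Because FPKM is per length, levels of different genes may be compared. With 1 library per condition there was no replicate check of any difference, and no test was made. A gene was counted as changed past the fold when it differed more than 2-fold and either or both libraries of the pair held it at an FPKM of at least 1. Comparisons also share libraries: SP2bKD with DMSO stands in 3 of them, and the GFP library, SP2bKD with PMA and both 427 libraries in 2 each.

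The libraries held about 25.5 to 29.2 times 1000000 fragments, estimated from the smallest FPKM steps, and 10555 to 10873 loci reached 1 FPKM. Sppl2b was not lower in the libraries labelled SP2bKD, at 9.37 to 13.4 FPKM in the 4 of them against 9.90 and 6.86 in 427 with DMSO and PMA. The paper checked SPPL2b mRNA of its knockdown clones by real-time PCR and reports less PMA-induced EICD in them. These FPKM are 1 value per library and do not test that knockdown. St14 was at 614.5 FPKM in the GFP+EICD library and at 69.6 to 105 in the other 5. The FPKM sum was 12.5 and 14.8 times 1000000 in the 427 libraries and 6.24 to 7.08 times 1000000 in the SP2bKD ones, with 85.6% to 94.2% of it in 10 loci. Scaling every library to the same sum therefore moved all SP2bKD to 427 log2 ratios up by 0.97 with DMSO and by 1.25 with PMA. It moved the PMA to DMSO log2 ratios in 427 by -0.25 and the GFP+EICD to GFP ones by -0.18.

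Keratins are the intermediate filament proteins of epithelial cells, and each filament pairs a type I chain with a type II chain. In stratified epithelia the basal layer makes keratin 5 (type II) and keratin 14 (type I), whereas simple epithelia make keratins 7 and 8 (type II) with keratins 18 and 19 (type I). In the thymus, cortical epithelium is known for keratins 8 and 18 and medullary epithelium for keratins 5 and 14. The transcription factor Foxn1 is needed for thymic epithelial differentiation, p63 (Trp63) for the upkeep of epithelial progenitors, Pax1 for the formation of the thymic primordium, and the cytokine Il7 for the growth of thymocytes.

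The line was epithelial by its transcripts, with basal keratins far above the simple ones. Of the 8 epithelial markers, 7 were at 1 FPKM or more in all 6 libraries, and the markers summed to between 6619 and 15182 FPKM. All but Cdh1 (123 to 236 FPKM) and Epcam (140 to 322 FPKM) are themselves among the 10 genes, and Krt5 and Krt14 made up most of the sum. Of the 6 thymic epithelial markers, Foxn1 and Trp63 were at 1 FPKM or more in all 6 libraries and Il7 in 2. Foxn1, Trp63, Il7 and Pax1 of this list are also among the 10 genes. Psmb11, the proteasome subunit that defines cortical epithelium, stayed at or below 0.0270 FPKM, and Aire, the regulator that defines a medullary subset, was listed at 0 in all 6. Markers of other cells were low beside Krt5 and Krt14, though not all were far below Foxn1 (6.37 to 15.2 FPKM). Of 10 thymocyte or T cell markers, Rag1 alone reached 1 FPKM (1.73 to 3.50), while the defining Cd3e, Cd3d, Cd4 and Thy1 were listed at 0, and the list summed to between 1.96 and 3.68 FPKM. The 4 endothelial markers summed to at most 0.431 FPKM. Of the 5 macrophage or dendritic cell markers, Csf1r (2.37 to 7.35 FPKM) and Cd68 (1.25 to 2.58 FPKM) reached 1 FPKM and Adgre1 was listed at 0.

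**Figure D1:**
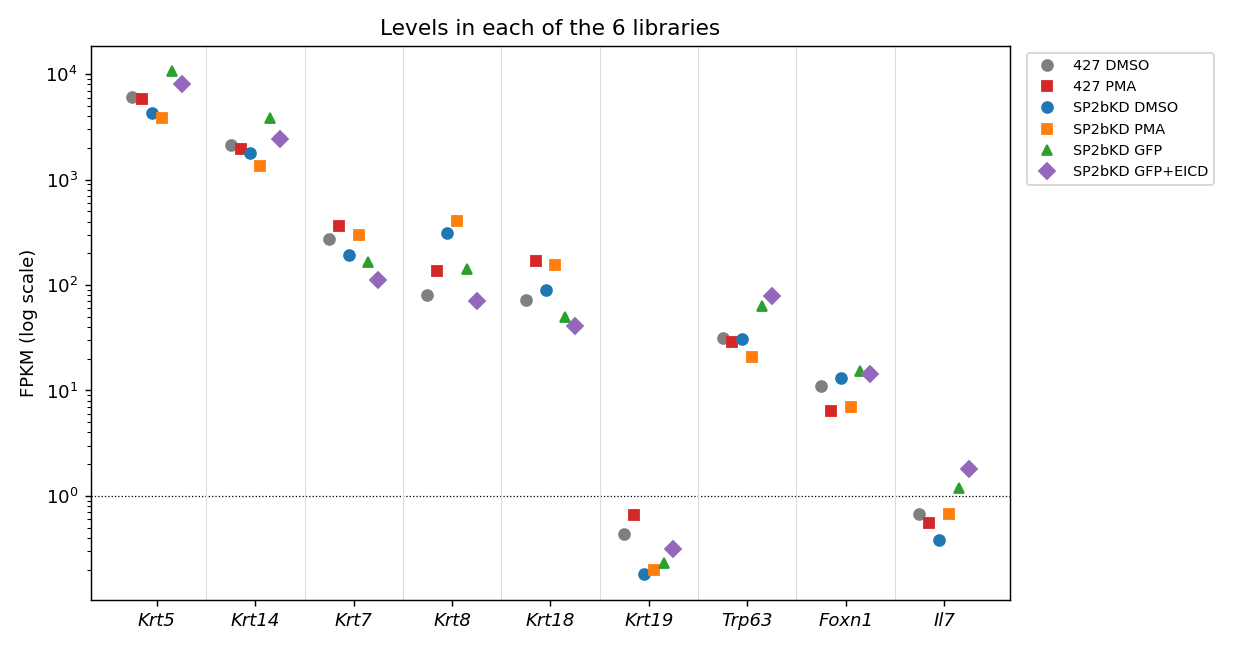
FPKM on a log scale of 9 of the 10 genes in each of the 6 libraries, 1 point per library; Pax1 is listed at 0 in all 6 and has no point, and the dotted line marks 1 FPKM. Krt5 lies between 3851 and 10705 and Krt14 between 1355 and 3820, both with their highest point in the GFP library, whereas Krt7, Krt8 and Krt18 have their lowest point in the GFP+EICD library.

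The basal pair was the most abundant of the 10 genes. Krt5, the basal type II keratin, had an FPKM of 6017 in 427 with DMSO, 5793 in 427 with PMA, 4246 in SP2bKD with DMSO, 3851 in SP2bKD with PMA, 10705 with GFP and 7993 with GFP+EICD. It was highest in the transfected libraries, and it ranked 7th to 10th among all loci with a symbol. The value belongs to a newly assembled locus of 76624 bases (GRCm38, chr15:101638928-101715551, minus strand). This locus also spans the annotated Krt6a and Gm5478, which have no value of their own, and Krt6b, which does, so that reads of Krt6a and Gm5478 may be part of it. The annotated Krt5 gene takes up chr15:101707070-101712898.

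Krt14, the type I partner of keratin 5 (chr11:100203162-100207548, minus strand), had an FPKM of 2154, 1960.5, 1785, 1355, 3820 and 2456 in the same order of libraries. Its highest and lowest libraries were those of Krt5, GFP and SP2bKD with PMA, and the levels spanned 2.82-fold against 2.78-fold for Krt5. The lowest Krt5 value (3851) was above the highest Krt14 value (3820). Krt14 is a close paralog of Krt16 and Krt17, and how the authors' counting divided reads between such paralogs is not given in the sources used here.

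Among the simple keratins, Krt7 (type II, chr15:101403037-101430313, plus strand) had an FPKM of 271 in 427 with DMSO, 362 in 427 with PMA, 193 in SP2bKD with DMSO, 298 in SP2bKD with PMA, 165 with GFP and 113 with GFP+EICD. The PMA library was the higher one in both lines, and the transfected libraries were the lowest. Krt8 (type II, chr15:101996711-102004342, minus strand) was at 80.1, 136, 311, 403, 143 and 70.2 FPKM in that order. It varied most among the 7 genes that reached 1 FPKM in all 6 libraries, by 5.74-fold, with both SP2bKD libraries that were not transfected above the other 4. Krt18, the partner of keratin 8 (type I, chr15:102028216-102032026, plus strand), was at 71.6, 171, 89.6, 153.5, 49.5 and 41.2 FPKM. The high libraries of Krt18 were those with PMA in either line, unlike those of Krt8.

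Krt19, a type I keratin of simple epithelia (chr11:100140810-100148665, minus strand), never reached 1 FPKM. It was at 0.436, 0.657, 0.180, 0.198, 0.231 and 0.315 FPKM, which corresponds to about 7.31 to 29.5 estimated fragments, and no difference is read from it. The ranges of Krt7 (113 to 362), Krt8 (70.2 to 403) and Krt18 (41.2 to 171) overlapped, so their order was not the same in every library.

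Of the transcription factors, Trp63 (chr16:25683763-25892102, plus strand) had an FPKM of 31.8 in 427 with DMSO, 28.6 in 427 with PMA, 30.5 in SP2bKD with DMSO, 20.7 in SP2bKD with PMA, 62.7 with GFP and 78.7 with GFP+EICD. Both transfected libraries lay above the other 4. Foxn1 (chr11:78357577-78387186, minus strand) was at 11.0, 6.37, 13.2, 7.01, 15.2 and 14.4 FPKM, and the 2 libraries with PMA were its lowest. Pax1 (chr2:147361925-147393295, plus strand) was listed at 0 in all 6 libraries, in which none of 12 housekeeping genes was at 0.

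Il7 (chr3:7569994-7613760, minus strand) was at 0.678, 0.552, 0.382, 0.680, 1.18 and 1.79 FPKM. It reached 1 FPKM in the transfected libraries alone, and about 47.9 to 232 estimated fragments stood behind it. Exons of 5 of the 10 genes share bases with an annotated RNA on the other strand, and whether reads were counted by strand is not given. These are Krt5 with 129 bases (a microRNA gene), Krt8 with 101 bases (the lincRNA Gm36026), Il7 with 105 bases (Gm16685), Krt7 with 77 bases (Gm671) and Pax1 with 183 bases (AI646519). In bulk RNA, fewer cells that make a transcript and less of it per cell cannot be told apart.

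**Figure D2:**
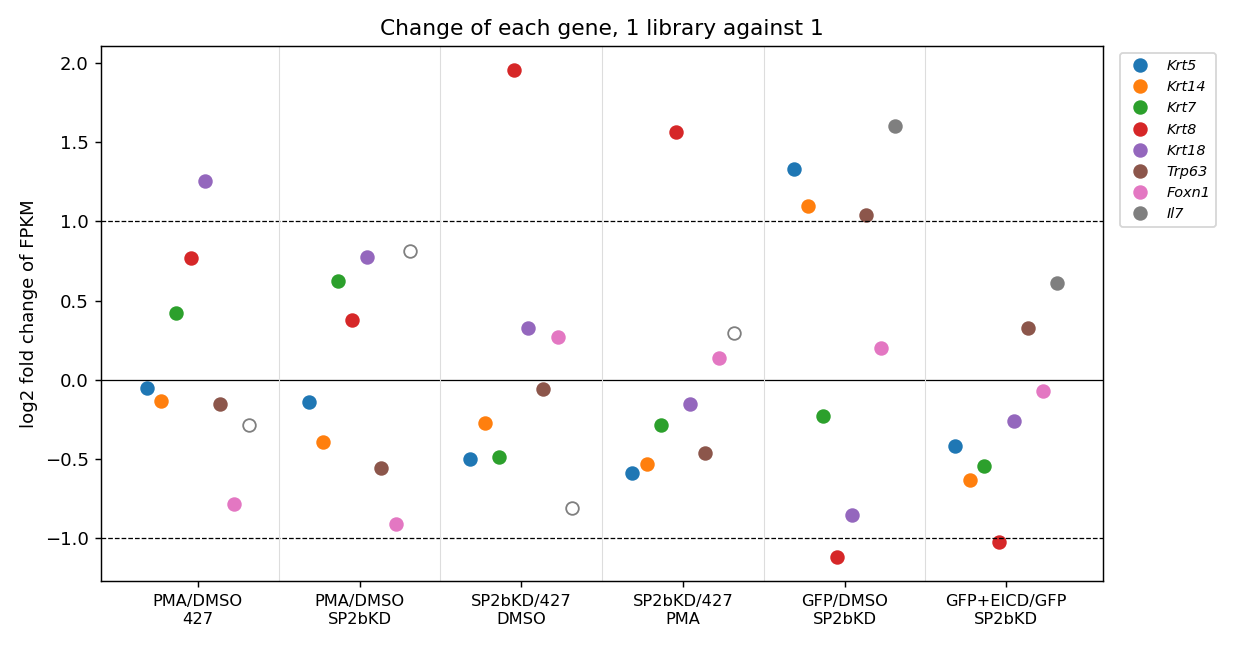
Log2 fold change of FPKM for 8 genes in the 6 comparisons, each of 1 library against 1; dashed lines mark 2-fold, and open points mark a gene under 1 FPKM in both libraries. Krt8 lies above 1 in both SP2bKD to 427 comparisons (1.96 and 1.56) and below -1 in both comparisons of transfected cells (-1.12 and -1.02). The negative SP2bKD to 427 values of Krt5, Krt14, Krt7 and Trp63 turn positive when FPKM sums are made equal, which raises all loci. They stay negative with equal upper quartiles.

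PMA, which sets off shedding of epithin/PRSS14, was compared with DMSO in each line. In 427 cells the simple keratins were higher with PMA and Foxn1 lower. Krt18 was 2.39-fold higher (log2 1.26), the 1 gene of the 7 at 1 FPKM or more that passed 2-fold, and none passed it downwards. Over all 10643 loci at 1 FPKM, 3.91% were more than 2-fold higher and 4.67% lower. Krt8 was at 1.70-fold and Krt7 at 1.34-fold. Foxn1 was at 0.58 of its level with DMSO (log2 -0.78). Krt5 (log2 -0.05), Krt14 (-0.14) and Trp63 (-0.15) lay near the median of all loci (-0.12), and Krt5 was above that median. The 7 genes had a median of -0.05.

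In SP2bKD cells the same 3 simple keratins were above their DMSO level and Foxn1 below it. Krt18 was at 1.71-fold, Krt7 at 1.54-fold and Krt8 at 1.30-fold, Foxn1 was at 0.53 of its DMSO level (log2 -0.91) and Trp63 at 0.68 (log2 -0.56). None of the 7 passed 2-fold in either direction, against 3.51% higher and 5.69% lower of 10624 loci. Krt5 (-0.14) and Krt14 (-0.40) stood beside a median of -0.15 over all loci and -0.14 over the 7 genes. The log2 PMA effect in SP2bKD minus that in 427 was -0.48 for Krt18, -0.39 for Krt8, 0.21 for Krt7 and -0.13 for Foxn1, and these differences were not tested. Il7 was under 1 FPKM in all 4 libraries and is not counted (log2 -0.29 in 427 and 0.82 in SP2bKD).

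Between the lines, Krt8 differed most of the 7 genes at 1 FPKM or more. It was 3.88-fold higher in SP2bKD than in 427 with DMSO (log2 1.96) and 2.96-fold higher with PMA (log2 1.56). Each time it was the 1 gene of 7 past 2-fold upwards and none passed downwards. With DMSO 3.11% of 10706 loci were higher and 2.76% lower, and with PMA 2.19% of 10518 were higher and 2.75% lower. Its partner Krt18 was within 2-fold, at log2 0.32 with DMSO and -0.16 with PMA, the latter turning to 1.09 when FPKM sums were made equal. Krt5 was at -0.50 and -0.59 and Krt14 at -0.27 and -0.53 with DMSO and PMA. Krt7 was at -0.49 and -0.28 and Trp63 at -0.06 and -0.46. All 8 values became positive (0.47 to 0.96) with equal FPKM sums, a scaling that raises all loci by 0.97 and 1.25. None changed sign with equal upper quartiles or with the median log2 ratio set to 0, so their direction depends on the scale. Foxn1 was at 0.27 and 0.14. The medians of the 7 genes were -0.06 and -0.28, beside 0.05 and 0.02 for all loci. Of the 7 fibroblast markers, Vim and Pdgfrb reached 1 FPKM in the libraries where Krt8 was highest and in no other. That list summed to 3.06 and 3.81 FPKM in SP2bKD with DMSO and PMA, to 1.09 and 1.05 in the 427 libraries and to 0.896 and 0.821 with GFP and GFP+EICD. Lum was listed at 0 in all 6 and Col1a1 was at most 0.199 FPKM, and the part of such transcripts in the Krt8 result was not tested.

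The GFP library differed from SP2bKD with DMSO in the basal genes and in Krt8, in opposite directions. Krt5 was 2.52-fold higher (log2 1.33), Krt14 2.14-fold (1.10), Trp63 2.05-fold (1.04) and Il7 3.09-fold (1.60), so 4 of 8 genes at 1 FPKM passed 2-fold upwards, beside 3.56% of 10687 loci. Il7 is counted through the GFP library alone, and with 1 FPKM added to both libraries it was at log2 0.66, which leaves 3 genes. Krt8 was at 0.46 of its level with DMSO (log2 -1.12), the 1 gene past 2-fold downwards, beside 4.14% of loci. Krt18 (log2 -0.86) and Krt7 (-0.23) were also below 0, and Foxn1 was at 0.20. The 8 genes had a median of 0.62 and all loci one of -0.08.

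EICD was compared within the transfected cells, GFP+EICD against GFP. Of the 8 genes at 1 FPKM, 6 were below 0 and all 5 keratins among them. Krt8 was at 0.49 of its GFP level (log2 -1.02), just past 2-fold and the 1 gene past it downwards, beside 0.506% of 10682 loci. None passed upwards, beside 3.58% of loci. Krt14 was at log2 -0.64, Krt7 at -0.55, Krt5 at -0.42 and Krt18 at -0.26. Trp63 was at 0.33, Il7 at 0.61 and Foxn1 at -0.07. The median was -0.34 for the 8 genes and 0.07 for all loci. The housekeeping genes looked at were also lower with GFP+EICD than with GFP, all but B2m (339 against 313 FPKM). Actb was at 995 against 1293 FPKM, Gapdh at 1422 against 1849, Eef1a1 at 4732 against 5195 and Sdha at 110 against 117. Whether the keratins fell more than other abundant transcripts was not tested.

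The pairing of type I with type II chains was described by ratios within each library, which no scaling changes. The Krt5 to Krt14 ratio stayed between 2.38 and 3.25. The Krt8 to Krt18 ratio did not: it was 1.12 and 0.797 in 427 with DMSO and PMA, 3.47 and 2.62 in SP2bKD with DMSO and PMA, 2.88 with GFP and 1.70 with GFP+EICD. All 4 SP2bKD libraries were above both 427 libraries, and the PMA library was the lower one in each line. Over the 6 keratins the type II to type I ratio was 2.53 to 3.27, as Krt5 and Krt14 make up most of both sums.

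The basal pair summed to 19.3 times the 4 simple keratins in 427 with DMSO and to 11.6 times with PMA. It was at 10.2 times in SP2bKD with DMSO, 6.09 times with PMA, 40.7 times with GFP and 46.6 times with GFP+EICD. The ratio was lower with PMA in both lines and highest in the transfected libraries. Some of the Krt5 part may be Krt6a.

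**Figure D3:**
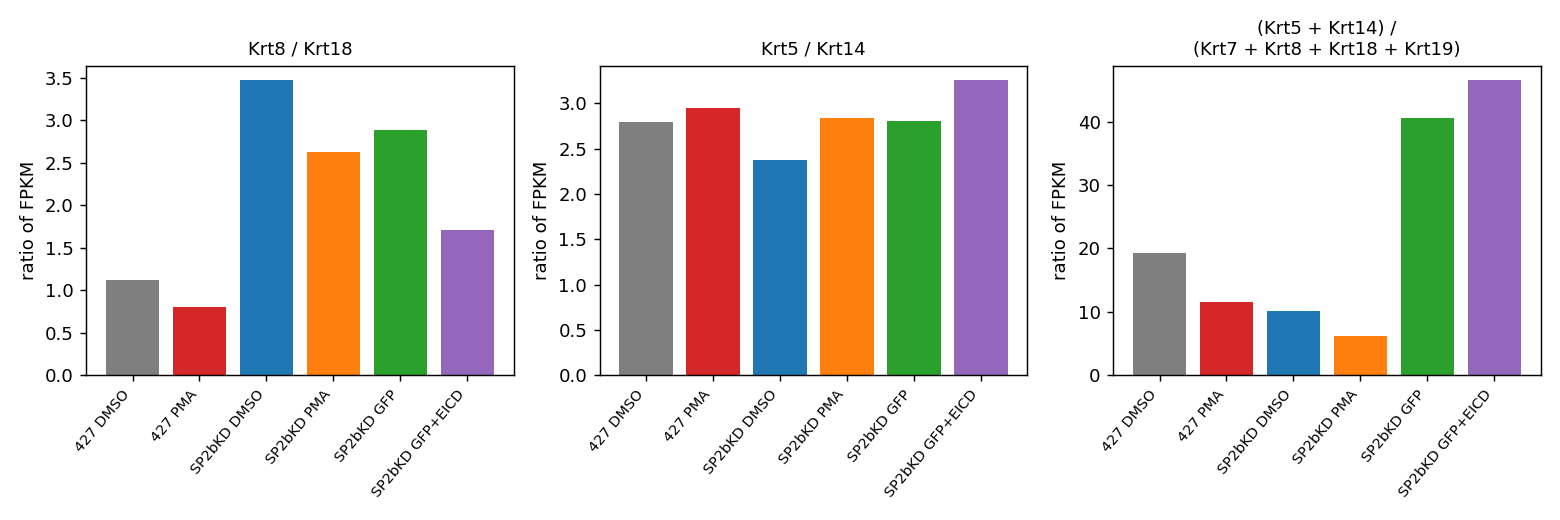
Ratios of FPKM within each of the 6 libraries, 1 bar per library on a linear axis from 0: Krt8 to Krt18, Krt5 to Krt14, and the basal pair to the 4 simple keratins. The Krt5 to Krt14 ratio keeps between 2.38 and 3.25, the Krt8 to Krt18 ratio runs from 0.797 to 3.47, and the basal to simple ratio is highest with GFP (40.7) and GFP+EICD (46.6).

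Krt8 and Krt18 are neighbours on chromosome 15. They are transcribed away from each other, with 23873 bases between their deposited start sites. All 22 type II loci of the tables lie on chromosome 15 with Krt18, and the other 27 type I loci on chromosome 11. The RefSeq promoter table (GRCm38.p6, 250 bases before to 50 after each start) held 7 of the 10 genes, and Krt19, Trp63 and Il7 had no entry. The stretches before the starts of Krt8, Krt18 and Krt5 are shown because these genes carry the contrasts above, and only bases outside annotated exons are given, 5′ to 3′ on the gene's strand. Capitals would mark a searched motif, and these stretches hold none.
Krt8, chr15:102004483-102004592, minus strand: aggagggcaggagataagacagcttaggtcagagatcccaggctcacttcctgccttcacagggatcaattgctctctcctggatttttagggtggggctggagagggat
Krt18, chr15:102027966-102028179, plus strand: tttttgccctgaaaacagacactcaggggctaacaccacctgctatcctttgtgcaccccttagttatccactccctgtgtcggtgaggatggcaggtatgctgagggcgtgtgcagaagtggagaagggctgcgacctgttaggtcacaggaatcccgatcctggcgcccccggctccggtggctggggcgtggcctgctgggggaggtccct
Krt5, chr15:101712906-101713155, minus strand: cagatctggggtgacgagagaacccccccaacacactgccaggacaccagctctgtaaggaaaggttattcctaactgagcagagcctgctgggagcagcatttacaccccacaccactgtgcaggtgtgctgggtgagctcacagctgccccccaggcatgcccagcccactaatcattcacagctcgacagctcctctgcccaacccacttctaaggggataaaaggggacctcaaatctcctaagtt

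Both strands of the 300-base windows were searched for 4 motifs. The AP-1 letters TGANTCA occur in 7.81% of the 32817 promoters of the table. The GC box letters GGGCGG occur in 35.6% of them and the TATA box letters TATAAA in 13.6%. The TEAD letters GGAATG occur in 14.7%. The AP-1 letters were in none of the 7 windows. The GC box letters were in the windows of Krt7 (4 matches), Foxn1 and Pax1, and the TEAD letters in that of Krt14. The TATA letters were in the window of Krt8, as 2 overlapping matches that begin at -3 and -1 and run across the start itself. The Krt14 window lies within the deposited Krt14 locus, since RefSeq starts that transcript at 100206030. A match is a description of letters and not of binding.

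The rest of the keratin family shows what else this line made. Of 44 other keratin loci, 10 reached 1 FPKM in at least 1 library and 4 in all 6, while 34 stayed under 1 FPKM (at most 0.462) and 13 of these were listed at 0 in every library. Krt17, a type I keratin of basal and wounded epithelium (chr11:100256217-100261029), was the most abundant, at 728, 1158, 505, 687, 1152 and 1000.3 FPKM in the order above. It was 1.19 higher on the log2 scale with GFP than with DMSO, like its paralog Krt14, but higher with PMA in both lines (0.67 and 0.44).

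Krt16, a type I keratin of activated keratinocytes (chr11:100246091-100248902), spanned a wider range than any of the 6 keratins above. It was at 53.3, 145, 15.5, 48.3, 130 and 131 FPKM. Its log2 fold change was 1.44 with PMA in 427, 1.64 with PMA in SP2bKD, 3.06 for GFP against DMSO and 0.01 for EICD. For SP2bKD against 427 it was -1.78 with DMSO and -1.58 with PMA, past 2-fold downwards, and with equal FPKM sums these would be shifted up by the 0.97 and 1.25 given above. Krt80, a type II keratin (chr15:101348317-101371552), was at 66.0, 135, 35.2, 87.5, 23.7 and 21.1 FPKM, more than 2-fold higher with PMA in both lines (1.03 and 1.32). Krt10, of differentiating keratinocytes, was at 2.77 to 4.32 FPKM in all 6.

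The other 6 were low. Krt15, a basal type I keratin, was at 0.592, 0.170, 1.13, 0.310, 2.24 and 8.78 FPKM, and its 1.97 on the log2 scale for EICD against GFP was opposite in sign to the values of Krt5, Krt14, Krt7, Krt8 and Krt18. Krt83, of hair, was at 5.67 and 4.80 FPKM in the transfected libraries and at 0.590 to 0.899 in the other 4. Krt6b was at 0.269 to 4.13 FPKM, Krt13 at 0.441 to 2.58, Krt42 at 0.688 to 2.48 and Krt79 at 0.746 to 1.40. Krt6b lies inside the Krt5 locus and is near-identical to Krt6a, so its value is uncertain.

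**Figure D4:**
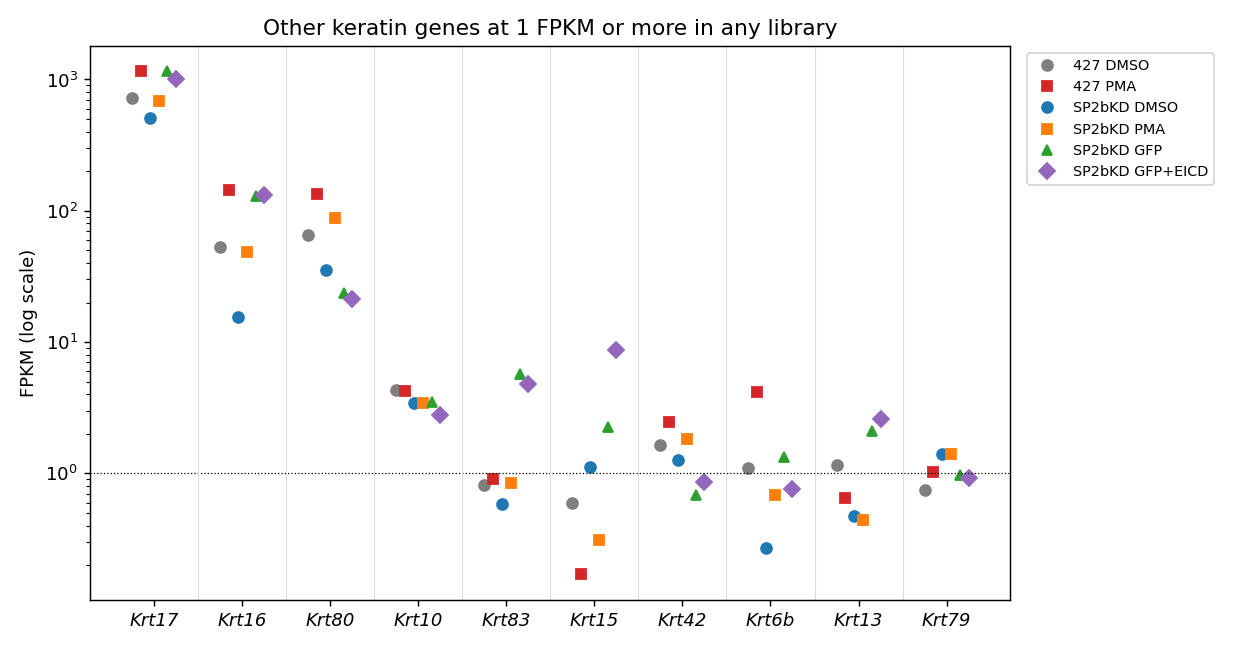
FPKM on a log scale of the 10 other keratin genes that reached 1 FPKM in any library, 1 point per library, ordered by mean level; the dotted line marks 1 FPKM. Krt17 lies between 505 and 1158, Krt16 between 15.5 and 145, and Krt15 has its highest point (8.78) in the GFP+EICD library.

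Proteins that anchor keratin filaments at desmosomes and hemidesmosomes formed a list of 15 genes, all at 1 FPKM or more in all 6 libraries. Plakoglobin (Jup, 231 to 300 FPKM), Pkp1 (88.9 to 186 FPKM) and the hemidesmosomal integrin Itgb4 (72.5 to 177 FPKM) were the most abundant. With PMA 12 of 15 lay below 0 in each line (medians -0.36 and -0.37, all loci -0.12 and -0.15). The bullous pemphigoid antigen gene Dst passed 2-fold downwards in both (log2 -1.43 and -1.42), and Dsg2 (-1.07) and Eppk1 (-1.01) in SP2bKD, beside 4.67% of all loci in 427 and 5.69% in SP2bKD. For GFP against DMSO 12 of 15 lay above 0 (median 0.45, all loci -0.08), with desmoplakin (Dsp, 1.23), Dsg3 (1.32) and Dsc3 (1.48) past 2-fold upwards, beside 3.56% of all loci. For EICD against GFP none passed 2-fold and the median was 0.10, with 0.07 for all loci. Between the lines Eppk1 passed 2-fold with PMA (-1.27), and with equal FPKM sums that value would be shifted by the 1.25 given above.

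Of 10 genes known as p63 targets, 9 reached 1 FPKM in all 6 libraries. Perp (261 to 557 FPKM), Sfn (264 to 467 FPKM) and Itga3 (134 to 261 FPKM) were the most abundant. Fras1 alone passed 2-fold, and at 1.07 to 2.72 FPKM it was near the minimum of 1 FPKM. It was lower with PMA in SP2bKD (log2 -1.32) and for GFP against DMSO (-1.24), beside 5.69% and 4.14% of all loci. It was higher for EICD against GFP (1.27), beside 3.58% of all loci. For GFP against DMSO, where Trp63 itself was at 1.04, 7 of the 9 lay above 0 with a median of 0.67, beside -0.08 for all loci. For EICD against GFP 6 of 9 lay above 0 with a median of 0.13, beside 0.07 for all loci.

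The 8 other intermediate filament genes held the lamins at 15.4 to 220 FPKM and little else. Lmna was at 137 to 220 FPKM, Lmnb1 at 49.5 to 89.9 and Lmnb2 at 15.4 to 29.3. Vim, the filament protein of mesenchymal cells, was at 0.292, 0.365, 1.04, 1.64, 0.553 and 0.263 FPKM. It passed 2-fold upwards between the lines (log2 1.80 and 2.14), beside 3.11% and 2.19% of all loci. Vim was under 1 FPKM in both 427 libraries and is counted through the SP2bKD libraries alone. Of 11 general epithelial genes, 10 had a value and 9 were at 1 FPKM or more in all 6 libraries, Epcam (140 to 322 FPKM) and Cdh1 (123 to 236 FPKM) among them. Only the St14 locus, from which the EICD construct derives, passed 2-fold, in the GFP+EICD library. Cdh1, which encodes E-cadherin, was higher with PMA by log2 0.91 in 427 and 0.75 in SP2bKD, and Epcam by 0.82 and 0.63.

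The 11 other cortical epithelial genes held 4 at 1 FPKM, all 4 in all 6 libraries. These were the protease Ctsl (351 to 487 FPKM), the endocytic receptor Ly75 (23.3 to 28.5 FPKM), the chemokine Ccl25 (7.05 to 14.3 FPKM) and the protease Prss16 (1.88 to 3.03 FPKM). None passed 2-fold in any of the 6 comparisons. Cxcl12 was at most 0.314 FPKM and Dll4 at most 0.166.

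The 12 other medullary genes also held 4 that reached 1 FPKM in any library, and all 4 were above their DMSO level with PMA in both lines. The tight junction gene Cldn4 was at 125, 553, 104, 320, 123 and 104 FPKM, with PMA 2.14 higher on the log2 scale in 427 and 1.62 in SP2bKD. The costimulatory ligand Cd80 was at 16.0, 60.6, 10.9, 45.8, 24.0 and 45.1 FPKM (1.92 and 2.07 with PMA, 1.14 for GFP against DMSO, 0.91 for EICD). Plet1, at 61.5 to 202 FPKM, was at 1.72 and 0.83 with PMA, and Ivl, of cornifying cells, was at 0.467 to 2.18 FPKM, at 1.66 with PMA in both lines and past 2-fold upwards for GFP against DMSO. Cldn4, Cd80 and Plet1, at 1 FPKM or more in all 6 libraries, passed 2-fold with PMA in 427, and Cldn4 and Cd80 in SP2bKD, beside 3.91% and 3.51% of all loci. Ivl was under 1 FPKM with DMSO in both lines and is counted through the PMA libraries alone. For GFP against DMSO it is likewise counted through the GFP library alone. Of the 4 genes, Cd80 and Ivl passed 2-fold upwards there, beside 3.56% of all loci. Besides Aire, Fezf2, Ccl21a, Ccl19 and Tnfrsf11a were listed at 0 in all 6 libraries.

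Of 10 other transcription factors of thymus formation, 8 reached 1 FPKM. Eya1 was at 11.1 to 19.2 FPKM, and Pax9, a relative of Pax1, at 9.42 to 13.0 FPKM. With PMA 6 of 7 in 427 and 8 of 8 in SP2bKD lay below 0 (medians -0.33 and -0.30, all loci -0.12 and -0.15). Isl1, at 1.38 to 5.75 FPKM, passed 2-fold downwards in both lines (-1.59 and -1.41), beside 4.67% and 5.69% of all loci. Trp73, the p63 relative, was at 0.675, 0.0166, 1.42, 0.219, 5.55 and 2.70 FPKM. It passed 2-fold downwards with PMA in SP2bKD (-2.64), beside 5.69% of all loci. It passed upwards for SP2bKD against 427 with DMSO (1.06) and for GFP against DMSO (1.96), beside 3.11% and 3.56%. With PMA in SP2bKD and between the lines, Trp73 is counted through SP2bKD with DMSO alone, at 1.42 FPKM. For EICD against GFP, where Trp63 was at 0.33, it passed downwards (-1.04), beside 0.506%. Gcm2 was listed at 0 and Tbx1 was at most 0.0232 FPKM.

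**Figure D5:**
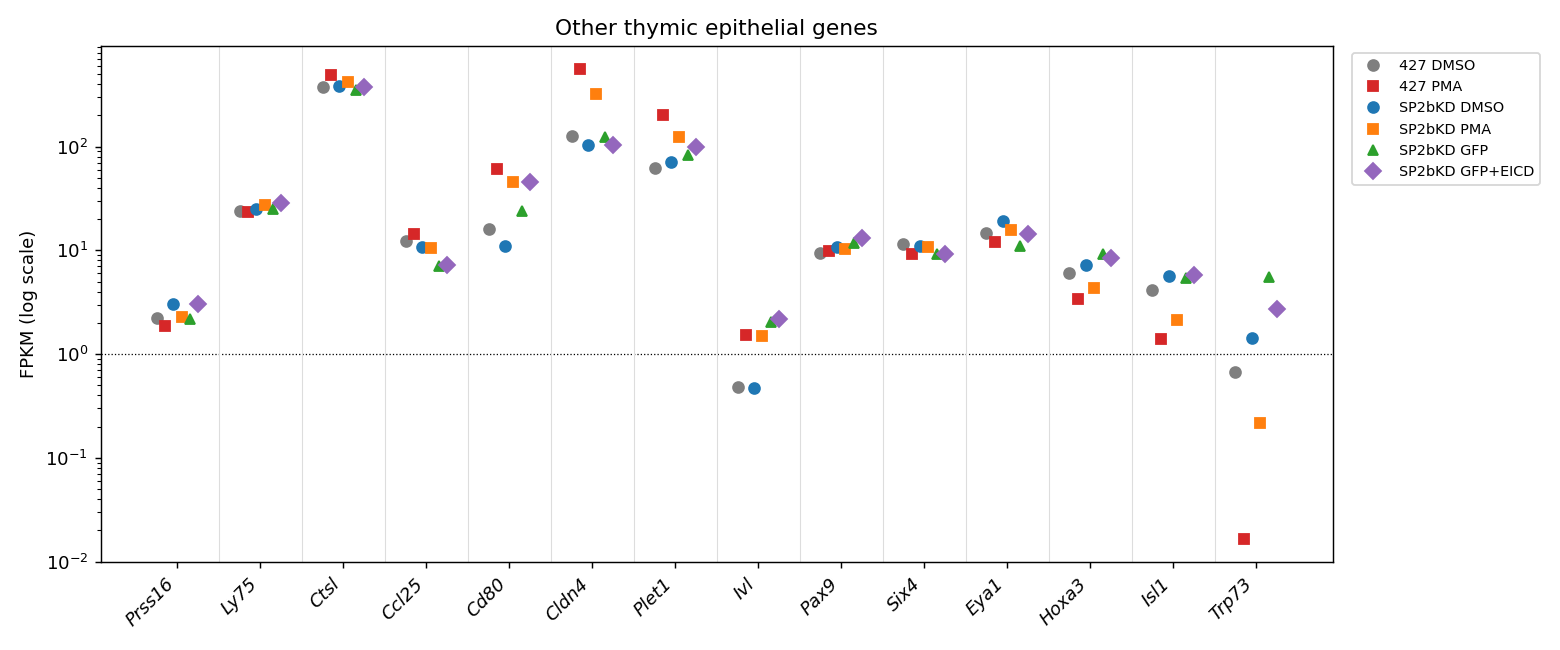
FPKM on a log scale of 14 of the 16 other thymic epithelial genes that reached 1 FPKM in any library (2 are not shown), cortical genes first, then medullary genes and transcription factors, 1 point per library; the dotted line marks 1 FPKM. The squares of the PMA libraries lie above the circles of the DMSO libraries for Cd80, Cldn4, Plet1 and Ivl and below them for Hoxa3, Isl1 and Trp73.

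Likeness of profiles was measured as the root mean square difference of log2 FPKM, centred on each locus's mean over the 6 libraries, against 9831 loci at 1 FPKM or more in all 6. The locus nearest to Krt5 was Krt14 (0.13), and Krt5 was in turn the nearest to Krt14. Next to Krt5 came Pvrl1 and Dmkn, and next to Krt14 S100a16 and Plekhm2. Krt8 stood at place 3593 from Krt18, and Krt7 at place 41. From Krt8, Krt18 stood at place 366 and Krt7 at 2839.

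The 3 loci nearest to Krt18 were pol, Rab32 and Ppif. Those nearest to Krt7 were Gm14139, Cst6 and Actb, the cytoskeletal actin. By this measure Krt8 had no close neighbour, as its nearest loci, Cdk14, Tigit and pol, lay at 0.39 to 0.43. This pol (4.41 to 14.6 FPKM) is another locus than the pol nearest to Krt18 (1.09 to 4.05 FPKM), though the symbol is the same. The measure also counts the size of changes: the Pearson correlation of Krt8 with Cdk14 was 0.97, as was that of Krt5 with Krt14. Trp63 was nearest to Ckmt1, Zfp365 and Dgka, with Krt5 at place 175 and Foxn1 at 498.

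Foxn1 had the nearest neighbour of the 7 genes, Hoxa3 at 0.08, followed by Pml and Tspan12. Hoxa3, one of the thymus-forming factors listed above, was at 5.99, 3.37, 7.25, 4.33, 9.17 and 8.51 FPKM, lowest with PMA in each line as Foxn1 was. These orders rest on 6 libraries of related cells and carry no test.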

How the data were processed

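Groups were taken from the labels. The authors aligned paired-end reads of oligo-dT selected RNA with TopHat2 2.1.1 and deposited FPKM from Cufflinks and Cuffdiff 2.1.1 for 25001 loci of an assembly on GRCm38, 1 value per library. The submitters' processing notes also list STAR 2.4.0b, without a role. FPKM depends on these gene models and on the normalization of Cuffdiff. Values were read with Python, NumPy and pandas. Log2 fold changes had 0.01 added to both libraries, or, for EICD, to the GFP+EICD library alone, where the GFP library held 0.01 FPKM or more. No test was made, as each condition has 1 library; PMA and DMSO in both lines would allow a fit of line and PMA with 1 residual degree of freedom, which was not run. Fragments were estimated from the lowest FPKM of loci with a single transcript longer than 2500 bases, and through the longest transcript of each gene; they are approximate and cover counting error only. The steps were tested on simulated data. Of 8731 annotated loci with an ID in GENCODE release M21 (GRCm38), 99.8% overlapped the gene of that ID.

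The 10 genes and the lists were chosen with earlier results of these data known. Named were all 10 genes, every other keratin at 1 FPKM in any library, from each list the 3 most abundant genes and those past 2-fold, and the 3 loci of nearest profile; genes named at 0 or near it, and further list genes, were added after their values were seen. Alternatives changed the amount added, the minimum, the scaling, the fold, the handling of repeated symbols, the keratins in the ratio and the measure of likeness. Some genes of the lists are counted but not reported here by name, and identities between the keratin proteins were not analysed here.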

Additional observations from a re-analysis of the deposited data

Results flagged for a closer look

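Krt18 was singled out because its difference between the lines had opposite signs with the 2 treatments. The log2 ratio of SP2bKD to 427 was 0.32 with DMSO and -0.16 with PMA, a difference of -0.48. With equal FPKM sums the ratios were 1.29 and 1.09. The difference was not tested.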

How the results depend on the processing

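No paired analysis was possible because the labels number no replicates within a condition; pairing PMA with DMSO by line (2 pairs, 1 residual degree of freedom) was not run. Of 112 recomputed counts of genes past the fold, 99 kept within 1.5 times the reported count. With equal FPKM sums, the genes past 2-fold became 1 lower with PMA in 427 (0 before, Foxn1, log2 -1.02). For SP2bKD against 427 they became 3 higher with DMSO and 3 with PMA (1 before). That scaling raises the SP2bKD to 427 log2 ratios of all loci by 0.97 and 1.25. The counts of 3 can therefore not be read as a gain of these genes. At 1.5-fold the genes past the fold became 2 higher and 1 lower with PMA in 427 and the same in SP2bKD. They became 1 lower for SP2bKD against 427 with PMA and 2 lower for GFP against DMSO. For EICD they became 1 higher and 2 lower. Shares of all loci past the fold were not recomputed under the alternatives. With a minimum of 0.1 FPKM, 1 gene was lower for SP2bKD against 427 with either treatment, Krt19 (log2 -1.23 and -1.68). No gene past 2-fold changed sign under any alternative. Of 342 recomputed log2 fold changes 11 changed sign, among them Krt5 with PMA in 427 when the median was set to 0. With all keratin loci the type II to type I ratio in 427 with PMA was 1.87 in place of 2.95. Ranking by Pearson correlation shared 0 of the 3 nearest loci for Krt5, Krt14, Krt7, Krt8, Krt18 and Trp63 and 1 of 3 for Foxn1; Krt14 then stood at place 12 from Krt5, and Krt5 at place 8 from Krt14. Depth limits Krt19 and Il7.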
